A study of Mus musculus with 6 samples.

Results

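Serpins, cystatins and stefins are 3 families of protease inhibitors, and their mRNAs were followed here in osteoclast cultures made from mouse bone marrow. Every probe whose gene name begins with Serpina to Serpini, Cst or Stfa and a number, or is Cstb, was taken, which gave 103 of the 56605 probes on the array and 78 of its 37074 gene names. The families split into 26 Serpina, 27 Serpinb and 11 Serpinc to Serpini genes, 9 cystatin genes and 5 stefin genes. RNA was measured on 6 one-colour Agilent arrays, 3 for cultures of Ano1fl/fl mice and 3 for cultures of Ctsk-Cre;Ano1fl/fl littermates. The Ano1fl/fl mice, called controls below, carry loxP sites around Ano1, which encodes a calcium-activated chloride channel, and keep the gene. The Ctsk-Cre;Ano1fl/fl mice, called cKO, carry the same floxed allele together with Cre recombinase under the cathepsin K gene, which is active late in the osteoclast lineage, so that deletion is limited to cells that have switched that gene on. Both groups received RANKL, the cytokine that drives osteoclast formation, for 5 days. The methods describe such cultures as marrow of mice 6 to 8 weeks old, kept with the macrophage growth factor M-CSF, from which the cells still in suspension after 1 day were taken on before RANKL was added. They name no sorting by lineage.

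Serpins act once: a protease cuts their exposed loop, stays bound to it, and both proteins are lost. Most act on serine proteases outside the cell, namely the plasminogen activators, the clotting enzymes and the first complement enzymes, while the Serpinb branch stays mainly inside the cell and guards against proteases leaking from granules. Cystatins and stefins (stefins lack a secretion signal) block cysteine cathepsins, among them cathepsin K, with which osteoclasts digest bone collagen.

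Each array had 59305 transcript spots, and 33480 to 34951 of them were well above background by the scanner software's own mark. The Ano1 probe was below background on all 6 arrays (log2 signal 1.70 to 2.04), so the labels could not be checked on the deleted gene. Of 12 osteoclast marker genes, 9 were more than 2-fold higher on the arrays labelled Ctsk-Cre;Ano1fl/fl and none was lower by that much. The study gives the opposite direction for osteoclast markers in cultures of these genotypes, so every direction below rests on the array labels as deposited. Markers of other cells moved too, counted at the same threshold. Among stromal cell and osteoblast markers 12 of the 17 tested were higher and none lower, and among B cell markers 6 of 7 were higher and none lower. Of the neutrophil markers 8 of 16 were lower and 1 was higher. Of the mast cell and basophil markers 4 of 7 were lower and none was higher. The macrophage list had 1 of 11 higher and 2 lower, the T and NK cell list 2 of 8 higher and 1 lower, and the endothelial list none of 5 higher and 1 lower. In RNA from whole cultures, fewer cells of a type and less RNA per cell cannot be told apart.

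Of the 78 inhibitor genes, 40 could be tested, meaning that the 3 arrays of 1 group or of both were all well above background. In cKO cultures 13 of these were more than 2-fold higher at a limma adjusted p under 0.05, against 9.88% of the 20645 genes tested, and 5 were more than 2-fold lower, against 7.19%. At that p and any fold, 16 of 40 were higher (23.4% of all genes tested) and 12 were lower (29.0%). The control and cKO arrays did not overlap in 29 of the 40, against 64.0% of all genes tested. The median log2 difference of the 40 was 0.17, and that of all genes tested was -0.06. Among the 13, Serpind1, Serpina3f, Serpina3i and Serpinc1 could be tested only because all cKO arrays were bright. With signal asked for on all 6 arrays, 9 of 31 were higher (7% of all genes tested) and 5 lower (5.77%).

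All 8 tested Serpinc to Serpini genes passed the adjusted p, 7 of them higher by more than 2-fold, with a median log2 difference of 3.18. Of the 14 tested Serpinb genes 2 were higher and none was lower by more than 2-fold, and their median was 0.15. Of the 10 tested Serpina genes 3 were higher and 1 was lower, and their median was -0.20. The 3 tested cystatins had 1 higher and 1 lower, and of the 5 stefins 3 were lower and none was higher. Values below are log2 normalized signals, given in the order of the replicate numbers. The labels do not say whether equal numbers mark paired cultures.

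**Figure D1:**
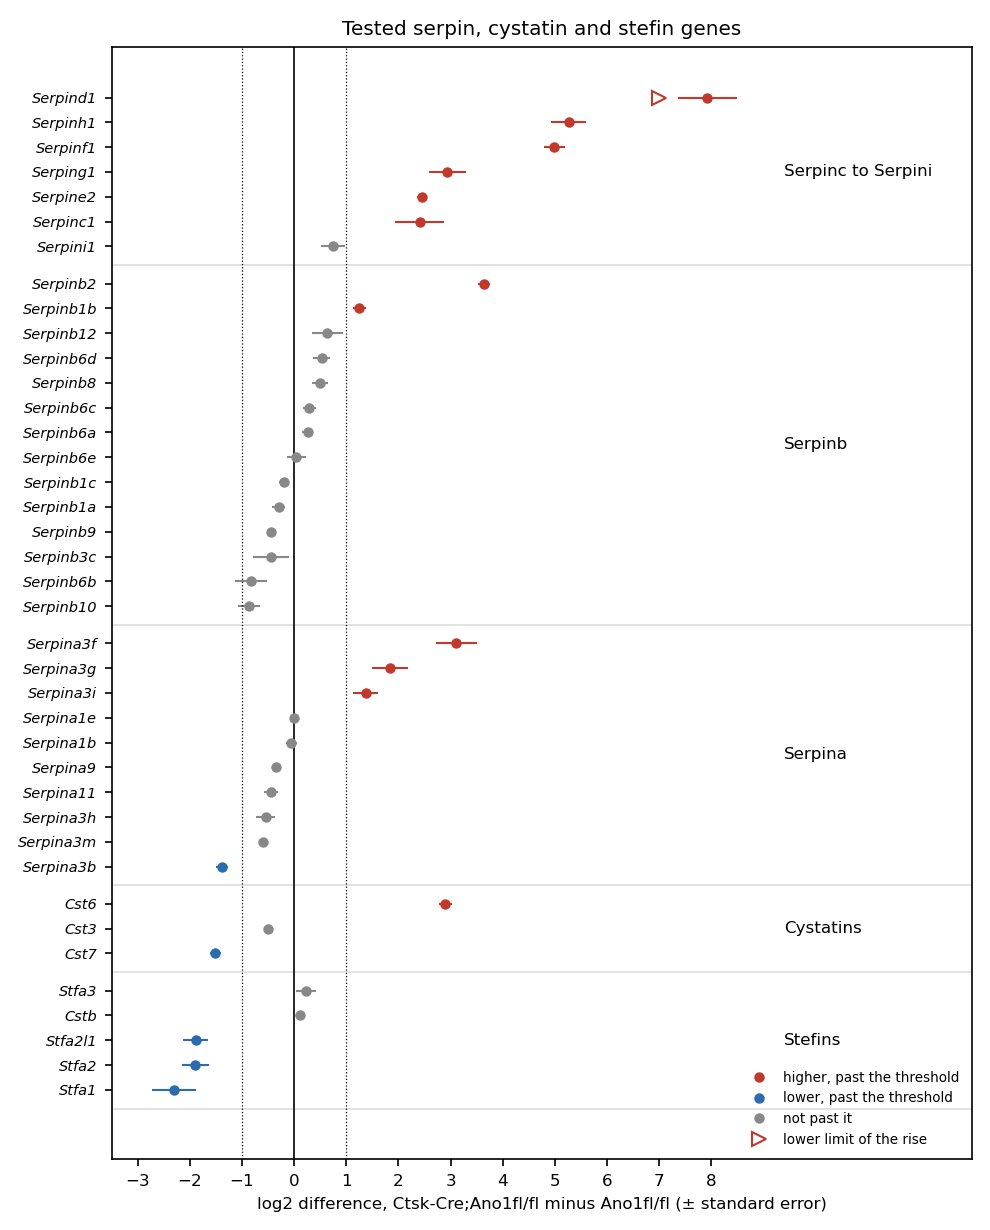
Log2 difference between the group means (horizontal axis, cKO minus control, bars ± SE, n = 3 arrays per group) of 39 tested inhibitor genes, by family; dotted lines mark 2-fold and the open triangle the lower limit for Serpind1. The Serpinc to Serpini genes shown all lie to the right of 0, and the 3 lower stefins lie at -1.89 to -2.30.

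Serpine2 and Serpinb2, which inhibit plasminogen activation, were higher in cKO cultures. Serpine2 (protease nexin-1, a cell surface inhibitor of thrombin and urokinase) gave 11.03, 11.13 and 11.19 in controls and 13.45, 13.71 and 13.54 in cKO. Serpinb2 (PAI-2, the inducible macrophage inhibitor of urokinase) gave 7.91, 8.09 and 8.19 against 11.84, 11.74 and 11.52. In both genes the lowest cKO array stood above the highest control array. The folds were 5.47 for Serpine2 (log2 difference 2.45 ± 0.09, SE, n = 3 per group, limma adjusted p = 1.73e-05) and 12.5 for Serpinb2 (3.64 ± 0.12, adjusted p = 1.36e-05).

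The enzymes and receptors of the same system moved less evenly. Of 9 tested genes for plasminogen activation and its receptors, 2 were higher and 1 lower, with a median log2 difference of 0.33. Plau, which encodes urokinase, did not pass (9.74, 10.86 and 10.52 in controls, 10.68, 10.91 and 10.75 in cKO, adjusted p = 0.261). Plat, the tissue activator, was below background on all 3 control arrays and rose by a log2 difference of 2.04 ± 0.40 (adjusted p = 0.00678), which is at least 1.73-fold. F3, tissue factor, was higher by 4.20 ± 0.11 (adjusted p = 6.83e-06). S100a10, a plasminogen receptor subunit, fell by 1.25 on the log2 scale (SE 0.07, adjusted p = 6.00e-05), and plasminogen itself was below background.

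The Serpinb2 promoter is shown because this was the Serpinb gene with the largest rise. The stretch ends just before the RefSeq start of the gene (GRCm38.p6, plus strand, 1:107511323-107511422).

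Serpinb2: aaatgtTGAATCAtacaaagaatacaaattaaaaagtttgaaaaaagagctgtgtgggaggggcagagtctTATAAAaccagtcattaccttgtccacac

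Capitals mark TGANTCA, the AP-1 motif, whose first base lies at -94 from the start, and TATAAA at -29. Searched on both strands of the 250 bases before the start, TGANTCA was present in 6.87% of 27025 mouse promoters and TATAAA in 13%. These motifs were looked at after the values were known, and a match is no evidence of binding.

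Serpind1, Serping1 and Serpinc1, inhibitors of clotting or of the first complement component, were also called higher. Serpind1, heparin cofactor II, a thrombin inhibitor, was not well above background on any control array (1.71, 3.83 and 3.58) and reached 10.66, 11.28 and 10.96 on the cKO arrays. Set against the dimmest probe that each control array still read as above background, the rise was at least 128-fold (log2 difference of the measured means 7.93 ± 0.56, adjusted p = 0.000133). The probe (mm9, 16:17343544-17343603, plus strand) lies in a gene that overlaps Pi4ka in RefSeq. With normexp background correction, an alternative that adds an offset to every spot, the log2 difference was 4.80. With the series matrix, the deposited table of spot medians, it was 5.70. Without control replicate 1, the lowest array for this probe, it was 7.26.

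Serping1, the C1 inhibitor, gave 8.15, 7.75 and 6.81 in controls and 10.77, 10.55 and 10.20 in cKO, a rise of 7.66-fold (2.94 ± 0.35, adjusted p = 0.000981). Serpinc1, antithrombin, was well above background on 2 of the 3 control arrays (2.62, 4.22 and 4.45) and on all cKO arrays (6.12, 6.10 and 6.29), a log2 difference of 2.40 ± 0.47 (adjusted p = 0.00645). The Serpinc1 call rests on 1 probe: another, above background on all 6 arrays and designed on an Ensembl transcript, differed by 0.19 ± 0.19 (adjusted p over probes = 0.423). With normexp the Serpinc1 log2 difference was 0.78, within 2-fold, with the series matrix 1.19, and with the mean of its probes 1.30.

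Of 13 tested genes for serine proteases outside the cell, 6 were higher and none was lower by more than 2-fold, with a median log2 difference of 1.00. Prss23 (4.81), Masp1, an enzyme of the lectin pathway of complement (4.18), and C1s1, a target of the C1 inhibitor (2.97), led them. The first 2 were below background on all control arrays, so that their rises are at least 14.8-fold and at least 14.4-fold. F10, the clotting factor X gene, was higher by 1.00 ± 0.10, just within 2-fold, and F7 by 0.48 ± 0.12, while the prothrombin gene F2 was not tested.

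**Figure D2:**
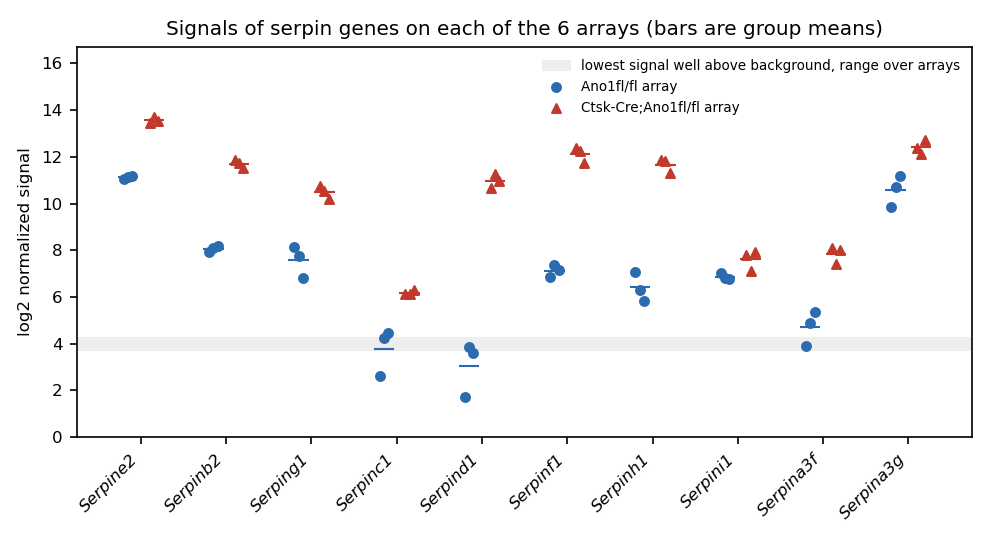
Log2 normalized signal (vertical axis) of 10 serpin genes on each array; circles are controls, triangles cKO, short bars group means, and the grey band spans the lowest signal well above background on the 6 arrays. The cKO arrays lie above the control arrays in each gene shown, and the control arrays of Serpind1 lie at or under the band, at 1.71 to 3.83.

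Serpinh1 and Serpinf1, which do not act mainly as protease inhibitors, had large rises. Serpinh1 (HSP47, the collagen chaperone of the endoplasmic reticulum) gave 7.09, 6.30 and 5.82 in controls and 11.87, 11.82 and 11.31 in cKO, a rise of 38.4-fold (5.26 ± 0.34, adjusted p = 9.36e-05), which normexp put at 4.44 on the log2 scale. Serpinf1 (PEDF, a secreted serpin without inhibitor activity that binds collagen) gave 6.87, 7.36 and 7.16 against 12.37, 12.23 and 11.76, a rise of 31.8-fold (4.99 ± 0.20, adjusted p = 2.01e-05). All 3 Serpinf1 probes rose, by 4.99, 5.28 and 6.53 on the log2 scale. The last of these was below background in controls, so its rise is at least 54.7-fold, and the mean of the probes gave 5.60.

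The second Serpinh1 probe was below background on all 6 arrays and lies on the opposite strand, and averaging it in brought the log2 difference down to 2.58. Of 19 tested genes for collagens and collagen folding and modifying proteins 11 were higher and none was lower by more than 2-fold, with a median log2 difference of 2.99. The largest rises were in Col1a1 (6.12), Col1a2 (5.39) and Fkbp10, another collagen chaperone (5.12). Ppib and P3h1, which modify collagen beside Serpinh1 in the endoplasmic reticulum, did not pass (-0.10 and -0.11, adjusted p = 0.242 and 0.402).

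Markers of stromal cells and osteoblasts moved with these genes. The log2 of their summed signal over the 17 tested ran from 14.56 to 14.69 in controls and from 16.52 to 17.08 in cKO. Lum, a stromal proteoglycan, was below background in all controls and Alpl, alkaline phosphatase, was higher by 5.52. The osteoblast markers Sp7 and Runx2 were not higher (-0.08 and -0.46), Ibsp was below background on all arrays, and Bglap was not tested. The part of these cells in the serpin rises was not tested. Hepatocytes are the main source of several plasma serpins in the body. Of 7 hepatocyte markers Alb, Ttr, Apoa1, Fga and Fgb were below background on all arrays, and the 1 tested, Tat, did not pass.

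Serpini1, neuroserpin, which inhibits the tissue plasminogen activator in brain, was higher within 2-fold (7.04, 6.80 and 6.75 in controls, 7.79, 7.11 and 7.92 in cKO). The groups were apart by a small gap, and the log2 difference was 0.74 ± 0.22 (adjusted p = 0.0327). This call was lost when any 1 array except cKO replicate 2 was left out, with adjusted p from 0.0524 to 0.0963, with the methods' t-test (0.0906), with no filter on dim probes (0.0881) and with the mean of all probes (0.44, adjusted p = 0.0703). Another tested Serpini1 probe did not pass (0.69, adjusted p over probes = 0.0805). Serpini2, Serpinf2 (the plasmin inhibitor) and Serpine3 were below background on all arrays.

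Of the 14 tested Serpinb genes, which act mostly inside the cell, Serpinb1b was called higher beside Serpinb2. Serpinb1b, a paralogue of the neutrophil elastase inhibitor, gave 6.26, 6.08 and 5.93 in controls and 7.34, 7.50 and 7.18 in cKO, a rise of 2.38-fold (1.25 ± 0.12, adjusted p = 0.000430), which normexp put at 0.77 and the series matrix at 0.94 on the log2 scale, both within 2-fold. Serpinb1a, the elastase inhibitor itself, gave 12.19, 12.35 and 12.35 against 12.01, 11.77 and 12.22, and the groups overlapped (-0.30 ± 0.13, adjusted p = 0.0932). It passed at -0.39 with 75th percentile scaling (adjusted p = 0.0406), and it also passed at -0.41 without cKO replicate 3.

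Serpinb9, the inhibitor of granzyme B, fell by 0.44 on the log2 scale (11.54, 11.48 and 11.41 in controls, 11.05, 10.98 and 11.06 in cKO, SE 0.07, adjusted p = 0.00285). Serpinb10 (bomapin, a nuclear serpin of myeloid cells) fell by 0.87 (8.66, 9.08 and 9.46 against 8.03, 8.29 and 8.28, SE 0.21, adjusted p = 0.0141). Serpinb10 lies next to Serpinb2 in the chromosome 1 cluster (mm9 probes at 1:109443390-109443449 and 1:109421496-109421555, both on the plus strand), and the neighbours thus moved in opposite directions. Without control replicate 1 the Serpinb10 log2 difference was -1.07 and that of Serpinb6b was -1.16, both then past 2-fold, and Serpinb10 missed the threshold with the methods' t-test (adjusted p = 0.0518).

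Serpinb6b, which inhibits granzyme A, did not pass with all arrays (10.28, 11.35 and 11.17 in controls, 10.03, 9.81 and 10.45 in cKO, adjusted p = 0.0637), and its groups overlapped. It passed within 2-fold, at -0.81 to -0.88, with 4 other settings: 75th percentile scaling (adjusted p = 0.0491), normexp (0.0373), the series matrix (0.0429) and limma's trend and robust settings (0.0329). Serpinb6d was higher by 0.53 ± 0.16 (adjusted p = 0.0348). Serpinb6a, an inhibitor of cathepsin G, gave 14.95, 14.84 and 14.79 in controls and 15.24, 15.17 and 14.94 in cKO (0.26 ± 0.10, adjusted p = 0.0766), and Serpinb6c gave 14.87, 14.75 and 14.66 against 15.29, 15.03 and 14.83 (0.29 ± 0.13, adjusted p = 0.110). Another bright Serpinb6a probe gave 12.90, 12.65 and 12.52 in controls and 13.22, 13.20 and 12.90 in cKO and passed within 2-fold (0.42 ± 0.14, adjusted p over probes = 0.0408). The first Serpinb6a probe passed with normexp (adjusted p = 0.0434), with limma's trend and robust settings (0.0304) and without cKO replicate 3 (0.0276), always within 2-fold. The brighter probes of Serpinb6a and Serpinb6c are alike over 39 of 42 aligned bases, so the array may not tell these genes apart. The 30-base stretches below are taken from within the aligned part, with the bases that differ in capitals.

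Serpinb6a: agtgaccttatccataagtgcaatgGcaAT

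Serpinb6c: agtgaccttatccataagtgcaatgAcaGC

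Serpinb8, a furin inhibitor, could not be given a direction. The brighter of its probes gave 14.63, 14.37 and 14.68 in controls and 14.80, 15.33 and 15.04 in cKO (0.50 ± 0.16, adjusted p = 0.0372). The other gave 10.85, 10.53 and 10.42 against 10.10, 9.997 and 9.80, a fall of 0.63 (SE 0.14, adjusted p over probes = 0.00983). Both probes passed in opposite directions, but the call of the brighter one was lost when any 1 array except cKO replicate 1 was left out (adjusted p from 0.0582 to 0.112), and with 75th percentile scaling (0.118), the replicate block (0.0884), the methods' t-test (0.0901) and no filter on dim probes (0.0888). Of the 60 bases of the brighter probe 50 are G or T, and it shares a run of 21 bases with the probe of Synpo2l. Bases 31 to 60 of the probes, with the runs of alternating T and G in capitals, were as follows.

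Serpinb8 brighter probe: aTGTGTGTGTGTGTGcctcTGTGTGTGTGT

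Serpinb8 other probe: gaaaaaactgaaggtaaaatttctgaagtt

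The rest of the tested Serpinb genes, Serpinb1c, Serpinb3c, Serpinb6e and Serpinb12, did not pass, with log2 differences of -0.19, -0.44, 0.04 and 0.64. The Serpinb branch meets granule proteases inside leukocytes. Of 9 tested leukocyte granule serine protease genes 5 were lower and 2 higher, with a median log2 difference of -2.53. Prss57 (-3.65), Prtn3, proteinase 3 (-3.46), and Ctsg, cathepsin G (-3.40), fell most, and the granzyme genes Gzmc (3.78) and Gzmb (1.72) rose. Serpinb9 was thus lower where Gzmb, which encodes its target, was higher, and Serpinb1a did not pass where Elane was lower by 3.25.

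Genes of the Serpina3 cluster on chromosome 12 moved in both directions. Serpina3g (Spi2A, an intracellular inhibitor of cathepsins in leukocytes) gave 9.85, 10.69 and 11.16 in controls and 12.39, 12.10 and 12.73 in cKO, a rise of 3.58-fold (1.84 ± 0.35, adjusted p = 0.00561). Serpina3f, a close relative, gave 3.90, 4.89 and 5.35 against 8.08, 7.39 and 7.998, a rise of 8.62-fold (3.11 ± 0.39, adjusted p = 0.00117). Serpina3i gave 3.71, 3.99 and 4.37 against 5.79, 5.00 and 5.40, a log2 difference of 1.37 ± 0.25 (adjusted p = 0.00474). In each of these 3 genes, control replicate 1 was the lowest array, and the groups did not overlap.

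Serpina3f and Serpina3i were well above background on only 2 of 3 control arrays, and normexp lowered their log2 differences to 1.69 and 0.42. The series matrix gave 2.18 for Serpina3f and 0.63 for Serpina3i, the latter within 2-fold. In the other direction, Serpina3b gave 6.74, 6.91 and 6.83 in controls and 5.54, 5.22 and 5.57 in cKO, a fall of 1.38 on the log2 scale (SE 0.11, adjusted p = 0.000237), which normexp put at -0.75 and the series matrix at -0.91. Serpina3m and Serpina3h were lower within 2-fold (-0.59 and -0.55), but Serpina3m was above background on only 1 of 3 cKO arrays, so the size of its difference is uncertain. The probes of f, g, h and i follow each other on mm9 from 12:105458989-105459048 to 12:105504738-105504797 on the plus strand. The Serpina3h groups were apart by a gap of only 0.00022 on the log2 scale, 2 of its 3 cKO arrays were above background, and its probe matches a dim Serpina3i probe at 51 of 57 bases. A further probe, annotated to both Serpina3f and Serpina3h, gave 1.69, 1.70 and 1.70 in controls, all below background, and 4.65, 4.08 and 4.18 in cKO, above background on 2 arrays, and was not tested. The direction of Serpina3h is therefore uncertain. Serpina3n, an acute phase inhibitor of cathepsin G and granzyme B, was below background on all arrays.

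Of the alpha-1-antitrypsin genes, the chief plasma inhibitors of neutrophil elastase, Serpina1b (-0.06 ± 0.10, adjusted p = 0.661) and Serpina1e (0.00 ± 0.08, adjusted p = 0.970) were tested and did not pass. Serpina1a, Serpina1c and Serpina1d were below background, and the Serpina1c and Serpina1d probes are annotated to more than 1 gene of this set. Serpina9 and Serpina11 fell by 0.34 and 0.45, within 2-fold, at signals near the floor. In all, 14 Serpina genes were below background on every array, and Serpina10 and Serpina1f were above it on too few arrays to be tested.

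Among the cystatins, Cst6 and Cst7 moved apart. Cst6 (cystatin E/M, a secreted inhibitor of legumain and cathepsins) gave 5.18, 4.80 and 4.93 in controls and 7.77, 8.05 and 7.78 in cKO, a rise of 7.47-fold (2.90 ± 0.13, adjusted p = 2.75e-05), which normexp put at 1.68 and the series matrix at 2.10 on the log2 scale. Cst7 (cystatin F, which blocks the cathepsin C that activates granule proteases) gave 10.52, 10.78 and 10.68 against 8.998, 9.20 and 9.24, a fall of 2.86-fold (-1.51 ± 0.10, adjusted p = 0.000123). Cst3 (cystatin C, the general secreted inhibitor of cathepsins) gave 16.38, 16.34 and 16.27 against 15.85, 15.92 and 15.71, lower by 0.50 on the log2 scale (SE 0.08, adjusted p = 0.00308). Both Cst3 probes fell, the second by 0.34. Cst8 to Cst13 were below background on all arrays.

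Of their targets, 3 of 13 tested genes of cysteine cathepsins and legumain were higher and none was lower by more than 2-fold, with a median log2 difference of 0.23. Ctsk, the bone-resorbing cathepsin whose gene also drives Cre here, rose by 3.17 ± 0.11 (adjusted p = 1.53e-05). Ctsw (1.28) and Ctsf (1.24) rose too. Ctsc, the target of Cst7, fell by 0.64 within 2-fold, and legumain, a target of Cst6, did not pass (0.14, adjusted p = 0.156).

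**Figure D3:**
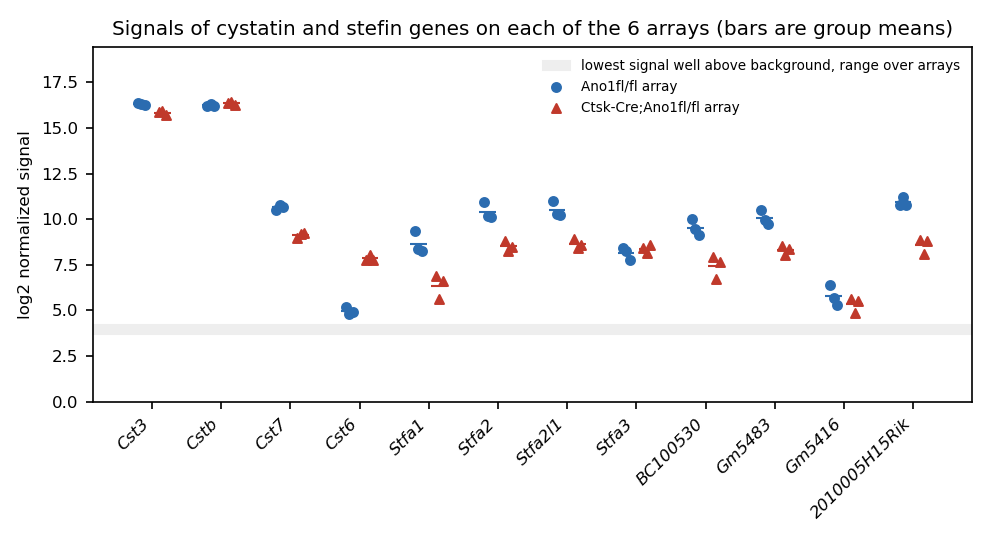
Log2 normalized signal (vertical axis) of Cst3, Cstb, Cst7 and Cst6, the 4 Stfa genes and 4 further genes of the stefin A cluster on each array; circles are controls, triangles cKO, short bars group means, and the grey band spans the lowest signal well above background on the 6 arrays. The control arrays lie above the cKO arrays in 6 of the 8 stefin A genes, and overlap them in Stfa3 and Gm5416.

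Stefins are the cystatins without a signal peptide, and mice carry 1 stefin B gene (Cstb) and a cluster of stefin A copies on chromosome 16. Cstb gave 16.20, 16.31 and 16.23 in controls and 16.36, 16.45 and 16.28 in cKO and did not pass (0.11 ± 0.08, adjusted p = 0.247). The Stfa genes were lower in cKO except Stfa3. Stfa1 gave 9.36, 8.39 and 8.25 against 6.87, 5.61 and 6.61, a fall of 4.92-fold (-2.30 ± 0.42, adjusted p = 0.00512), which normexp put at -1.64 on the log2 scale. Stfa2 gave 10.96, 10.18 and 10.10 against 8.81, 8.23 and 8.50, a fall of 3.73-fold (-1.90 ± 0.26, adjusted p = 0.00173).

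Stfa2l1 gave 11.02, 10.30 and 10.23 against 8.89, 8.44 and 8.57, a fall of 3.70-fold (-1.89 ± 0.24, adjusted p = 0.00117). Its probe is annotated to Stfa2 transcripts as well, so this pair is not independent. Stfa3 gave 8.40, 8.27 and 7.79 against 8.43, 8.13 and 8.59, and the groups overlapped (0.23 ± 0.19, adjusted p = 0.350). Control replicate 1 was the highest control array for all 4 genes, and cKO replicate 2 was the lowest cKO array. Of 4 tested genes of the cluster under other names, 3 were lower, 2010005H15Rik by 2.35, BC100530 by 2.10 and Gm5483 by 1.77 on the log2 scale, and Gm5416 did not pass (-0.47, adjusted p = 0.263).

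Of 16 neutrophil markers, 8 were lower by more than 2-fold and 1 was higher. The log2 of their summed signal ran from 18.64 to 18.71 in controls and from 18.26 to 18.46 in cKO, with log2 differences of -2.07 for Ly6g, -3.68 for Retnlg and 1.75 for Lcn2. S100a9, Camp and Csf3r did not pass (0.20, -0.12 and -0.07). The part of neutrophils in the fall of the stefins was not tested.

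The stefin A promoters are shown because the 4 named copies share sequence whether or not they fell. Each stretch ends just before the RefSeq start (GRCm38.p6, chromosome 16).

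Stfa1 (16:36277048-36277147, plus strand): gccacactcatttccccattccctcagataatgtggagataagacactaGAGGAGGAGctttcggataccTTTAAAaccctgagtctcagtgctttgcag

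Stfa2 (16:36408364-36408463, minus strand): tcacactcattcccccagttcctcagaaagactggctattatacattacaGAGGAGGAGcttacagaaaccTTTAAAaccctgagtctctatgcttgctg

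Stfa2l1 (16:36156711-36156810, plus strand): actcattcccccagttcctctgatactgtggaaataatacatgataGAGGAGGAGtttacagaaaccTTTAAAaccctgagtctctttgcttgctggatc

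Stfa3 (16:36455393-36455492, minus strand): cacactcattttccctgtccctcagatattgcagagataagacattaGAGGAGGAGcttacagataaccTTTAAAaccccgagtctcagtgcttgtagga

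Capitals mark GAGGAGGAG, with its first base 54 to 50 bases before the start, and TTTAAA, 33 to 29 bases before it. On both strands of windows of this length and place, the first was in 1.37% and the second in 4.44% of 27025 mouse promoters, and both together in 13 promoters (0.0481%), among them Cstdc4 and Cstdc5, the RefSeq names of the genes given above as Gm5483 and BC100530, both lower. Aligned without gaps, Stfa2 and Stfa2l1 were identical at 84 of 96 bases (87.5%), and Stfa3 at 70 of 98 with Stfa1 (71.4%). Stfa3 holds both motifs as well and did not pass. The gene 2010005H15Rik (Csta2 in RefSeq), also lower, was not among the 13, nor was Gm5416 (Csta3), which did not pass. The motifs were picked after the sequences and the values had been seen.

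Of the 103 probes, 38 were well above background on all 6 arrays and 50 on none. In the fit over probes 16 of 49 tested were higher, against 8.91% of all probes tested, and 5 were lower, against 8.11%. Where a gene had more than 1 tested probe, Serpine2, Serpinf1, Cst3, Serpinb6a, Serpinb6c and Serpini1 kept 1 direction over their probes, Serpinb8 did not, and the Serpinc1 probes differed in size.

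**Figure D4:**
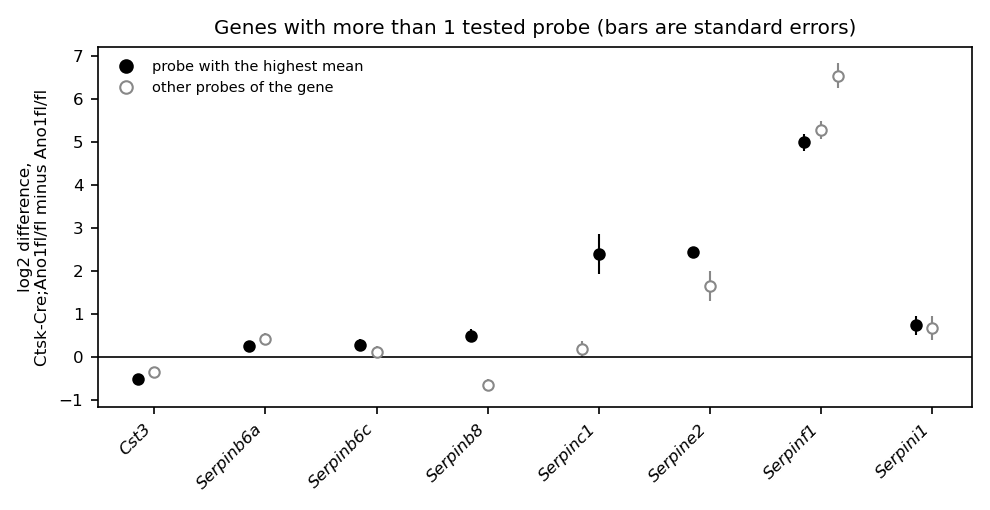
Log2 difference (vertical axis, cKO minus control, bars ± SE, n = 3 arrays per group) for each tested probe of the 8 genes with more than 1; filled points are the probes that stand for the gene, open points the others. The Serpinb8 probes lie on opposite sides of 0, at 0.50 and -0.63, and the 3 Serpinf1 probes between 4.99 and 6.53.

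Protease inhibitors outside these names behaved variously. Of 17 tested, 7 were higher and none was lower by more than 2-fold, with a median log2 difference of 0.44. Timp1 (4.45) and Timp3 (3.01), which inhibit metalloproteinases, were higher, and Tfpi2, which inhibits plasmin and the tissue factor pathway and was below background on all 3 control arrays, rose by at least 1.67-fold. Slpi, the secreted inhibitor of elastase and cathepsin G, did not pass (15.60, 15.46 and 15.33 in controls, 15.73, 15.55 and 15.40 in cKO, adjusted p = 0.512).

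**Figure D5:**
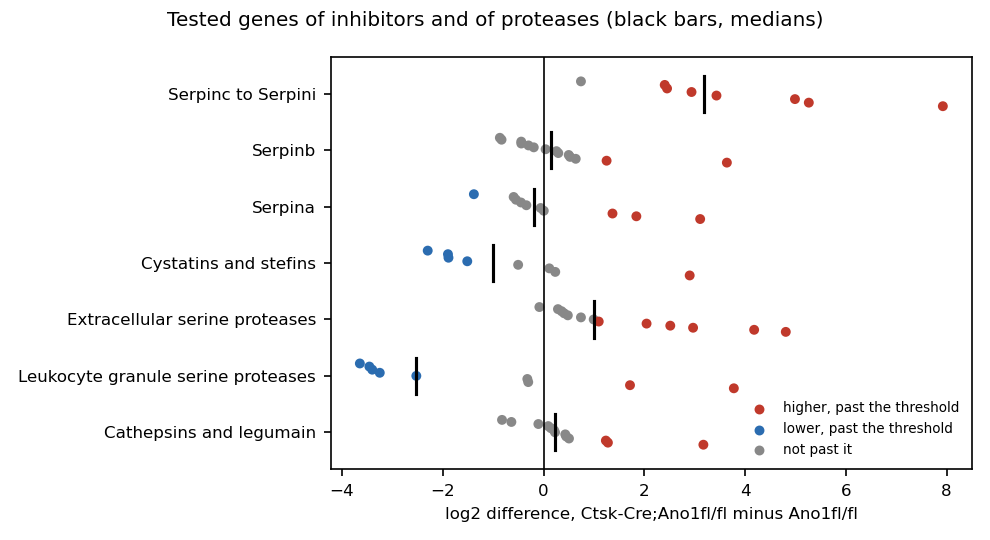
Log2 difference (horizontal axis, cKO minus control) of each tested gene in 4 groups of inhibitors and 3 lists of proteases; points are genes and black bars medians. The medians run from 3.18 for Serpinc to Serpini to -2.53 for the leukocyte granule serine proteases.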

How the data were processed

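RNA of 3 Ano1fl/fl and 3 Ctsk-Cre;Ano1fl/fl osteoclast cultures was measured on 6 one-colour arrays. The deposited files hold scanner intensities per spot, made by the authors with Agilent Feature Extraction 10.7.1.1; the processed signal is background-subtracted and not normalized between arrays. The deposited series matrix also holds an intensity, equal to the median of each spot. Log2 of the processed signal was taken and quantile normalized between arrays, the algorithm that the methods name, with limma 3.58.1 in R 4.3.3. Outlier and control spots were left out, spots of a probe were averaged, and a probe counted as above background where 0.5 of its spots were. A gene is read by its probe with the highest mean. Groups were compared with lmFit and eBayes, and p was adjusted by Benjamini-Hochberg over the 20645 genes or 31848 probes tested. Nothing was saturated. The script was tested on simulated data. All 6 arrays came from 1 slide and 1 scan. The labels do not say whether each culture was of 1 mouse; the methods name 3 mice per group, and p measures the spread between these samples. Alternatives were 75th percentile scaling, normexp with an offset of 50, the series matrix, other filters on dim probes, the mean of all probes, probes in place of genes, folds of 1.5 and 3, limma's trend and robust settings, the methods' t-test, the replicate block and leaving out each array. An exact permutation test of 3 against 3 cannot go below p = 0.1 and was not used.

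The members, the protease, inhibitor, collagen and cell marker lists and the genes to be named were chosen with earlier results of these data known, so none is independent evidence. Named were members past the threshold with groups apart, a list of members named whatever their result, and up to 3 rises and 3 falls per protease, inhibitor and collagen list. Members named beyond these were picked after their values were seen. The 92 probes matched to RefSeq by accession kept their gene name there, and the other 11 were matched by that name itself. Positions of probes are those of the files (mm9). Promoters are those of RefSeq (GRCm38.p6), which held 64 members. Plots were drawn with Python 3.11.15, pandas 2.3.3 and matplotlib 3.10.9. The value of 1 member gene, which the counts and medians include, is not reported here.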

Additional observations from a re-analysis of the deposited data

How the results depend on the processing

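The count of 13 higher genes ran from 9 to 14 in the alternatives that count genes, and that of 5 lower genes from 3 to 7. Shares of all genes or probes tested stand in parentheses. With no filter on dim probes 14 of 78 were higher (6.19%) and 6 lower (4.55%). Above 1.5-fold it was 14 of 40 (14.7%) and 7 (16%). Counting probes in place of genes gave 16 of 49 higher (8.91%) and 5 lower (8.11%). Asking for more than 3-fold left 11 of 40 higher (6.92%) and 3 lower (2.64%). Leaving out each array in turn gave 13 higher genes every time (9.54% to 10.3%) and 5 to 7 lower (6.96% to 7.29%). A filter asking for signal on all 6 arrays left 9 of 31 higher (7%), since it drops the 4 genes that were dim in controls. With normexp 10 of 40 were higher (6.33%). Fitting the replicate numbers as a block (replicate block) gave 13 higher (9.82%) and 5 lower (7.11%). Same-numbered arrays did not deviate together (correlations 0.00, -0.06 and -0.08). With so few arrays this cannot show whether the cultures were paired. The difference turned over for Serpinb8 with the mean of its probes (-0.067, adjusted p = 0.642) and for Cstb with 75th percentile scaling (-0.0043, adjusted p = 0.972), a setting that moved the median of all genes from -0.06 to -0.13. Counted by adjusted p alone, whatever the fold, 386 values of single genes kept direction and side, 18 (Serpini1, Serpinb8 and Serpinb10) lost it and 10 gained it. By the 2-fold part, Serpina3b, Serpina3i and Serpinb1b fell within 2-fold with normexp and with the series matrix, and Serpinc1 with normexp. Serpinb6b and Serpinb10 went past 2-fold without control replicate 1. Without cKO replicate 3 Serpinb6b also went past 2-fold but did not pass the adjusted p. The number of arrays and signals near background limit the precision of dim genes, Serpina3f, Serpina3i, Serpinc1 and Serpind1 among them.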
